A study of Mus musculus with 6 samples.

Results

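The Slc30 family encodes the ZnT proteins, the zinc exporters of mouse cells, and its 10 genes Slc30a1 to Slc30a10 were followed here by gene symbol through 6 RNA-seq libraries of sorted pancreatic islet cells. They are 10 of the 46932 symbols used, taken by name whatever their level. Of the 10, 7 were at 1 RPKM or above in 2 or more libraries and were tested among the 13022 genes that were. RPKM is the number of reads per kilobase of gene and per M reads of the library, so levels can be set beside each other between genes. The other 3, Slc30a2, Slc30a3 and Slc30a10, were at or near 0 and are given by their values.

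ZnT proteins move zinc out of the cytosol, either across the plasma membrane or into vesicles and organelles, while the ZIP proteins of the Slc39 family bring it into the cytosol. In beta cells ZnT8, the product of Slc30a8, loads the insulin granules with zinc, around which insulin hexamers are stored and crystallise, and human SLC30A8 variants are known for their link to type 2 diabetes. Excess cytosolic zinc is bound by metallothioneins and sensed by the transcription factor Mtf1, which acts on metal response elements in the promoters of the metallothionein genes and of Slc30a1.

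The cells came from adult mice with 3 transgenes: mIns1-H2b-mCherry, which puts a red nuclear label in cells with an active Ins1 promoter, Sst-cre, active in somatostatin cells, and a floxed YFP allele that Cre switches on for good in delta cells and whatever they become. Double-positive cells carry both colours, the insulin reporter and the YFP lineage label, and are called delta transdifferentiated cells in the labels, beta cells carry mCherry, and delta cells carry YFP. All groups share the 3 transgenes, the overnight culture in RPMI with 5.5 mM glucose and 10% serum, and the dissociation with 0.25% trypsin. The sources used here give neither strain nor exact age. Each group has 2 libraries, replicate 1 from a male and replicate 2 from a female pool of 10 to 12 animals, so replicates differ in sex as well as in pool. Sorting on the Ins1 and Sst drivers means that insulin and somatostatin levels are partly set by the gates, which do not use any Slc30 gene.

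The denominators recovered from the low values were 12.5 and 10.9 M reads for double-positive cells, 21.6 and 20.5 M for beta cells and 17.0 and 15.7 M for delta cells. The fewest reads behind the value of a tested member were 283, for Slc30a6 in the female double-positive library. Beta markers summed to 115876 and 123853 RPKM in double-positive cells, 356080 and 259306 RPKM in beta cells and 22071 and 22297 RPKM in delta cells, and the 5 delta markers to 13507 and 13590 RPKM, 79.7 and 96.6 RPKM, and 51785 and 60683 RPKM in the same order of groups. Most of the beta marker sum was Ins1 and Ins2 in double-positive and beta cells. In delta cells it was mostly Iapp, at a mean of 20580 RPKM. The delta means of Mafa, Ucn3, Nkx6-1, Slc2a2 and G6pc2 ran from 1.26 to 12.0 RPKM. The delta libraries also held alpha and PP cell transcripts, and the male beta and double-positive libraries acinar ones, whose values are given beside the members they touch. Insulin reads took 10.8% and 11.7% of the reads in double-positive cells, 38.9% and 27.6% in beta cells and 0.179% and 0.219% in delta cells. The ductal, macrophage, endothelial and mesenchymal markers each summed to 94.7 RPKM or less. A larger insulin share lowers the RPKM of every other gene in the library. Values after median-of-ratios scaling, which sets the typical gene level across libraries, are therefore also given. They are given where they change a member's call or direction, or the call of another zinc handling gene.

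Slc30a8 made up most of the family's RNA in double-positive and in beta cells. Summed over the 10 genes, the family reached 255 and 284 RPKM in double-positive cells, 219.7 and 285 RPKM in beta cells and 135 and 132 RPKM in delta cells. Slc30a8 held 62.7% and 68.7% of that sum in double-positive cells, 72.7% and 72.6% in beta cells and 32.0% and 31.5% in delta cells. Without Slc30a8 the rest of the family summed to 95.3 and 88.8 RPKM in double-positive cells, 60.1 and 78.1 RPKM in beta cells and 91.6 and 90.4 RPKM in delta cells. The double-positive and delta values of this remainder are close together, and both beta libraries lie below the other 4 on these deposited values.

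**Figure D1:**
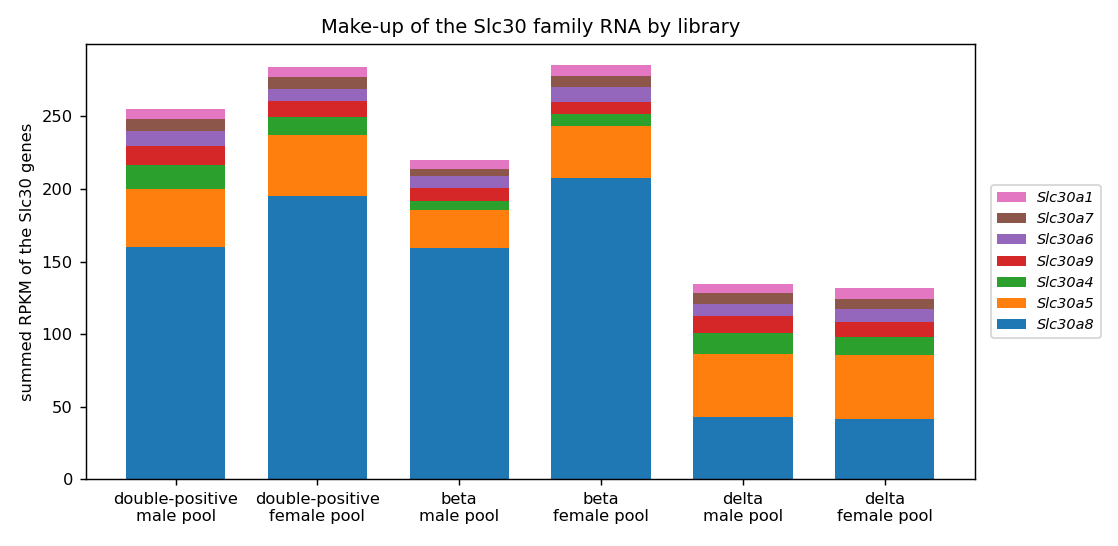
Stacked bars of the RPKM of the Slc30 genes in each of the 6 libraries, double-positive, beta and delta from left to right; each colour is 1 of the 7 tested genes, and the 3 genes at or near 0 are too low to see. The Slc30a8 part is between 159.6 and 207 RPKM in the 4 double-positive and beta bars and 43.2 and 41.5 RPKM in the delta bars.

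The order of levels was the same at the top in every double-positive and beta library, Slc30a8 first and Slc30a5 second. In both delta libraries Slc30a5 came first and Slc30a8 second, at 0.999 and 0.945 times the level of Slc30a5. The ratio of Slc30a8 to Slc30a5 was 3.96 and 4.62 in double-positive cells and 6.14 and 5.80 in beta cells. Being taken within a library, these ratios do not depend on its scaling, and the double-positive values lie between those of beta and delta cells without overlapping either. Slc30a4 came next in double-positive and delta cells, whereas in beta cells Slc30a4, Slc30a6 and Slc30a9 changed places between the 2 libraries. Slc30a1, Slc30a6 and Slc30a7 lay near each other, at 5.28 to 10.4 RPKM over the 6 libraries. Their order varied within the double-positive and the delta group, and was the same in both beta libraries.

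**Figure D2:**
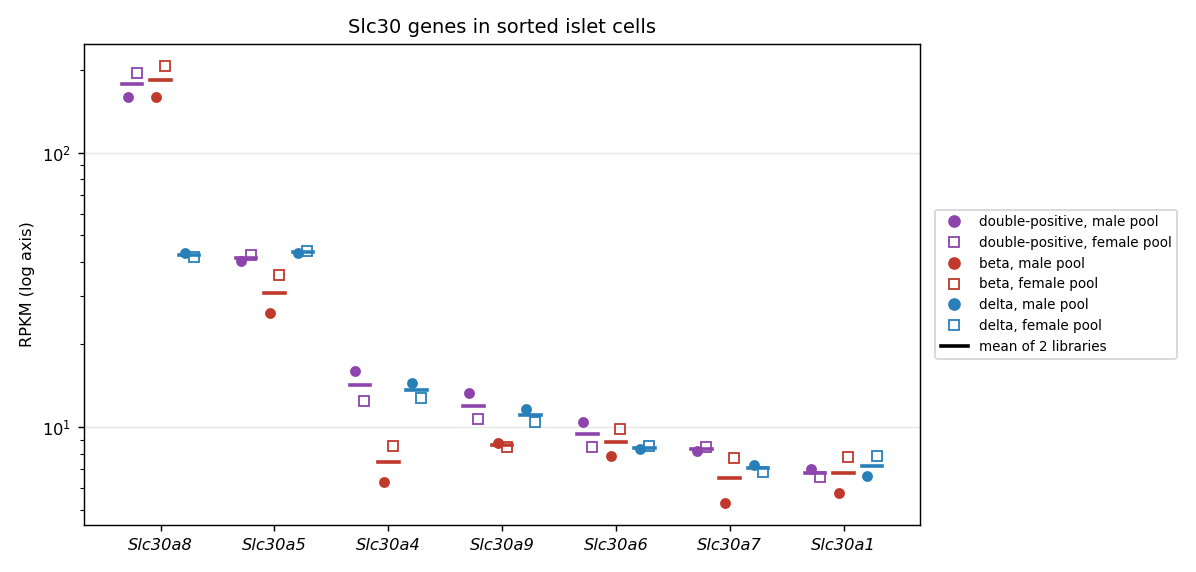
RPKM on a log axis for the 7 tested Slc30 genes, with double-positive, beta and delta cells from left to right within each gene; filled circles are male pools, open squares female pools, and lines the mean of 2 libraries. Double-positive points of Slc30a8 sit with the beta points, and those of Slc30a4, Slc30a5 and Slc30a9 with the delta points.

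Slc30a8, the granule zinc transporter, lies on chr15:52295553-52335798 (GRCm38, plus strand), with 8 exons, 1 annotated transcript and no overlapping gene. It was at 159.9 and 195 RPKM in double-positive cells, 159.6 and 207 RPKM in beta cells and 43.2 and 41.5 RPKM in delta cells. Both double-positive and both beta libraries are high and overlap each other, and the 2 delta libraries lie far below them. The means were 177 ± 24.8 RPKM in double-positive cells, 183 ± 33.7 RPKM in beta cells and 42.3 ± 1.17 RPKM in delta cells (SD, n = 2 libraries each). On the log2(RPKM + 1) scale the difference between double-positive and delta cells was 2.03 (SE 0.16, 95% interval 1.65 to 2.42, adjusted p = 9.82e-04, limma), a 4.19-fold ratio of means. It was 1.86 within the male and 2.20 within the female pool. This call held under each of the 16 alternatives in processing, where the difference ran from 1.89 to 2.20 and the adjusted p from 3.51e-04 to 0.018.

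Against beta cells, Slc30a8 in double-positive cells differed by -0.04 (SE 0.16, 95% interval -0.43 to 0.34, adjusted p = 0.84, limma). That interval includes differences of either sign, so neither a difference nor equality is shown. The call depends on the scaling: after median-of-ratios scaling Slc30a8 fell by 0.45 in double-positive cells relative to beta cells (adjusted p = 0.040, limma), and with insulin reads left out of the denominator by 0.46 (adjusted p = 0.031, limma). The same 2 scalings left the difference from delta cells at 2.06 and 2.20. Set against insulin instead, double-positive cells had 1.87 and 2.09 RPKM of Slc30a8 per 1000 RPKM of Ins1 plus Ins2, beta cells 0.517 and 0.943, and delta cells 30.4 and 23.8. Insulin itself was at 85611 and 93337 RPKM in double-positive cells, 308635 and 219893 RPKM in beta cells and 1419 and 1742 RPKM in delta cells, a wider span between the groups than that of Slc30a8.

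ZnT8 is also known from alpha cells, and the 6 alpha markers moved opposite to Slc30a8 between double-positive and delta cells. They summed to 1800 and 2594 RPKM in double-positive cells, 461 and 644 RPKM in beta cells and 15150 and 16521 RPKM in delta cells, most of it Gcg, and none was at 0 in any library. All 6 were lower in double-positive than in delta cells, with an adjusted p of 0.029 or less (limma). The 2 PP cell markers, Ppy and Pyy, summed to 11877 and 12041 RPKM in double-positive cells, 802 and 558 RPKM in beta cells and 36498 and 37076 RPKM in delta cells. How much of the delta-library Slc30a8 came from such cells was not tested. In bulk libraries, fewer cells with a transcript and less of it in each cell cannot be told apart.

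The early secretory pathway is served by ZnT5 and ZnT6, which work as a pair, and by ZnT7. They supply zinc to enzymes such as alkaline phosphatase on their way through the Golgi. Slc30a5, on chr13:100802648-100833427 (GRCm38, minus strand, 16 exons, no overlapping gene), was at 40.3 and 42.2 RPKM in double-positive cells, 26.0 and 35.8 RPKM in beta cells and 43.2 and 43.9 RPKM in delta cells. Both beta libraries are the lowest, and each pair of groups is free of overlap. The double-positive mean of 41.3 ± 1.31 RPKM lay above the beta mean of 30.9 ± 6.91 RPKM and near the delta mean of 43.6 ± 0.496 RPKM (SD, n = 2). The difference between double-positive and beta cells was 0.42 (SE 0.16, 95% interval 0.05 to 0.80) and missed the threshold with an adjusted p of 0.059 (limma), but passed it in the fit with a term for the pool (adjusted p = 0.036, limma) and without the female beta library (0.65, adjusted p = 0.0038, limma). In beta relative to delta cells Slc30a5 fell by 0.50 (SE 0.16, adjusted p = 0.030, limma), a call lost without any 1 of the double-positive or delta libraries, with an adjusted p of up to 0.12. Both differences were near 0 after median-of-ratios scaling, at 0.03 and -0.08. Between double-positive and delta cells Slc30a5 differed by -0.08 (95% interval -0.45 to 0.30, adjusted p = 0.81, limma).

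Slc30a6 encodes the partner of ZnT5, and on its own ZnT6 is held not to carry zinc. It was at 10.4 and 8.45 RPKM in double-positive cells, 7.86 and 9.84 RPKM in beta cells and 8.28 and 8.55 RPKM in delta cells. The groups overlap in each pair, and no comparison passed on the deposited values. After median-of-ratios scaling Slc30a6 was higher in beta than in delta cells by 0.44 (adjusted p = 0.021, limma), against 0.06 before. Slc30a7 was at 8.17 and 8.46 RPKM in double-positive cells, 5.28 and 7.73 RPKM in beta cells and 7.27 and 6.86 RPKM in delta cells. Both double-positive libraries are the highest of the 6, but the differences of 0.33 from beta cells (95% interval -0.07 to 0.73, adjusted p = 0.14, limma) and 0.21 from delta cells (95% interval -0.19 to 0.61, adjusted p = 0.49, limma) did not pass. Without the female beta library Slc30a7 was higher in double-positive than in beta cells by 0.57 (adjusted p = 0.0084, limma) and differed by -0.36 between beta and delta cells (adjusted p = 0.030, limma). After median-of-ratios scaling the Slc30a7 difference was -0.02 between double-positive and beta cells. It was then 0.25 between beta and delta cells (adjusted p = 0.16, limma). With insulin reads left out of the denominator, Slc30a7 was higher in beta than in delta cells by 0.39 and passed (adjusted p = 0.033, limma). Annotated pseudogenes on the other strand share exon bases with Slc30a7 and are listed at 0 in every library.

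Slc30a4 encodes ZnT4, an endosomal and vesicular transporter whose loss gives the lethal milk mouse its zinc-poor milk. The gene lies on chr2:122681233-122702663 (GRCm38, minus strand, 7 exons). It was at 16.0 and 12.4 RPKM in double-positive cells, 6.32 and 8.55 RPKM in beta cells and 14.5 and 12.8 RPKM in delta cells. Both beta libraries are low, and the double-positive and delta libraries overlap each other above them. Slc30a4 rose by 0.85 in double-positive relative to beta cells (SE 0.18, 95% interval 0.43 to 1.28, adjusted p = 0.0080, limma), a 1.91-fold ratio of means. After median-of-ratios scaling the difference was 0.49 and still passed (adjusted p = 0.032, limma). The call rests in part on the male double-positive library, without which the difference was 0.68 with an adjusted p of 0.059. In beta relative to delta cells Slc30a4 fell by 0.81 (SE 0.18, adjusted p = 0.0082, limma), and by 0.42 after median-of-ratios scaling, where it no longer passed. Without the male delta library its adjusted p was 0.060. Between double-positive and delta cells it differed by 0.05 (95% interval -0.38 to 0.48, adjusted p = 0.90, limma). A transcript on the other strand, 4930417H01Rik, shares 130 exon bases with Slc30a4 and was at 0.486 RPKM or less, and the sources used here do not say how strand was counted.

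Slc30a9 encodes ZnT9, described as a zinc exporter of mitochondria. On chr5:67306955-67358443 (GRCm38, plus strand, 18 exons), it was at 13.3 and 10.7 RPKM in double-positive cells, 8.75 and 8.46 RPKM in beta cells and 11.7 and 10.4 RPKM in delta cells. The beta libraries are again the lowest, and double-positive and delta cells overlap. Slc30a9 rose by 0.43 in double-positive relative to beta cells (SE 0.13, 95% interval 0.11 to 0.75, adjusted p = 0.034, limma), and this was lost in 10 of the 16 alternatives, among them leaving out any 1 library other than the female double-positive one. After median-of-ratios scaling it was 0.06 (adjusted p = 0.72, limma). In beta against delta cells the difference was -0.32 (SE 0.13) and did not pass (adjusted p = 0.075, limma).

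Slc30a1 encodes ZnT1, the main exporter of zinc across the plasma membrane. It was at 7.04 and 6.56 RPKM in double-positive cells, 5.77 and 7.78 RPKM in beta cells and 6.64 and 7.82 RPKM in delta cells. All groups overlap. The differences were 0.02 for double-positive against beta cells (95% interval -0.36 to 0.39, adjusted p = 0.93, limma), -0.07 for double-positive against delta cells (95% interval -0.45 to 0.30, adjusted p = 0.82, limma) and -0.09 for beta against delta cells (adjusted p = 0.64, limma). After median-of-ratios scaling the first was -0.34 (adjusted p = 0.073, limma) and the last 0.28. With insulin reads left out of the denominator, which gave -0.35 and 0.43, both passed (adjusted p = 0.048 and 0.023, limma). The antisense transcript 1700034H15Rik shares 468 exon bases with Slc30a1 and was at 0.602 RPKM or less.

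The 3 remaining members were barely seen. Slc30a2 encodes a vesicular transporter known from pancreatic acinar and mammary cells. It had 1 read (0.0224 RPKM) in the male double-positive library, 8 reads (0.104 RPKM) in the male beta library, 2 reads (0.0358 RPKM) in the female delta library and 0 reads in the other 3. The 8 acinar markers summed to 1913 and 66.9 RPKM in double-positive cells, 7257 and 278 RPKM in beta cells and 520 and 289 RPKM in delta cells, highest in the library with the most Slc30a2 reads, and the part of acinar RNA in those reads was not tested. Slc30a10, known for carrying manganese, had 1 read in the female double-positive library (0.0157 RPKM) and 2 reads in the male beta library (0.0159 RPKM). Slc30a3, which fills synaptic vesicles with zinc in the brain, was listed at 0 in all 6 libraries. A count of 0 allows up to 3 reads, which for Slc30a3 were worth 0.0845 and 0.0971 RPKM in double-positive cells, 0.0491 and 0.0518 RPKM in beta cells and 0.0624 and 0.0675 RPKM in delta cells, for counting error only.

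Counted over the 7 tested members, 1 passed between double-positive and delta cells, Slc30a8, which was higher in double-positive cells. Of all genes tested, 12.7% passed there, 5.53% higher and 7.2% lower, and after median-of-ratios scaling 5.94% higher and 6.43% lower. Between double-positive and beta cells 2 passed, Slc30a4 and Slc30a9, both higher in double-positive cells, where 51.0% of all genes passed, 42.5% higher and 8.46% lower. Between beta and delta cells 3 passed, Slc30a8 higher and Slc30a4 and Slc30a5 lower in beta cells, where 57.9% of all genes passed. With 7 members, these counts are near or below the shares over all genes. The median difference of the 7 members was 0.10, 0.33 and -0.12 in the 3 comparisons, beside -0.03, 0.32 and -0.36 over all genes. Median-of-ratios scaling moved the genes called higher and lower in double-positive against beta cells to 27.8% and 26.1%, and the member calls to Slc30a4 higher and Slc30a8 lower. In beta against delta cells the same scaling gave 27.8% higher and 29.7% lower, against 11.7% and 46.3% on the deposited values, and left Slc30a8 and Slc30a6 as higher and no member as lower.

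**Figure D3:**
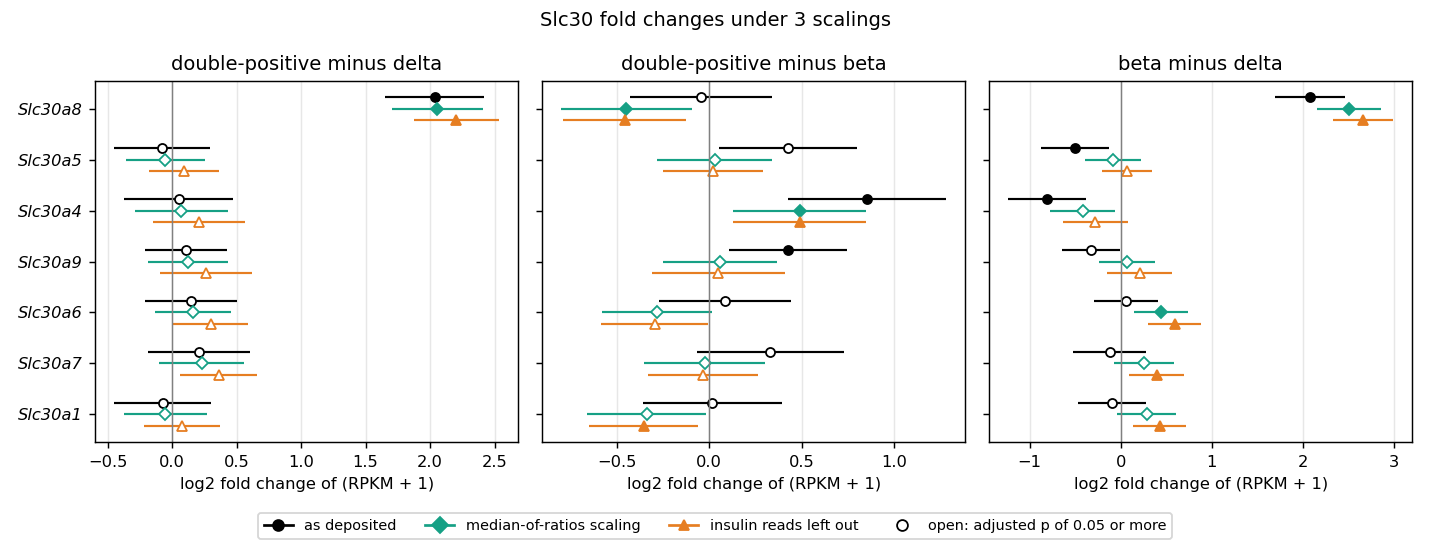
Log2 fold changes of (RPKM + 1) with 95% intervals for the 7 tested Slc30 genes, in 3 panels for double-positive minus delta, double-positive minus beta and beta minus delta; black circles are deposited values, green diamonds median-of-ratios scaling and orange triangles values with insulin reads left out, and open symbols did not pass. Slc30a8 lies to the right of 0 against delta cells under every scaling, at 2.03 to 2.20 in double-positive and 2.08 to 2.66 in beta cells, while in double-positive minus beta it moves from -0.04 to -0.45 and -0.46.

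Genes whose pattern over the 6 libraries was closest to a member were found by the root mean square difference between log2(RPKM + 1) values centred on each gene's mean. For Slc30a8 they were Insrr (0.114), the insulin receptor-related receptor, Eps8 (0.150), Ky (0.151), Ror2 (0.159) and Grk5 (0.163). Insrr was at 39.7 and 44.9 RPKM in double-positive cells, 37.5 and 40.9 RPKM in beta cells and 9.48 and 7.94 RPKM in delta cells, high and low in the same libraries as Slc30a8. For Slc30a4 the closest were Atxn3 (0.0446), Dclre1a (0.0451) and Gopc (0.0469), for Slc30a5 Ssh1 (0.0245), Tob1 (0.0255) and Arel1 (0.0274), and for Slc30a9 Fam175b (0.0313), Zfp335os (0.0318) and Dars (0.0390). Patterns that follow the scaling of the libraries are shared by many genes, so these distances are a description only.

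The other genes of zinc handling were counted over a list of 21: the 14 Slc39 importers, 4 metallothioneins, Mtf1, Tmem163 and Gpr39. Of these 16 were tested. Slc39a2, Slc39a4, Slc39a5, Slc39a12 and Mt4 were too low, and Slc39a3, Slc39a6, Slc39a7, Slc39a9, Mtf1 and Gpr39 passed in no comparison on the deposited values. After median-of-ratios scaling Slc39a3, Slc39a7 and Slc39a9 were lower in double-positive than in beta cells (adjusted p = 0.0037, 0.0053 and 0.018, limma). The same 3 and Slc39a6 were then higher in beta than in delta cells (adjusted p = 0.0082, 0.0089, 0.0065 and 0.039, limma). Between double-positive and delta cells 4 rose (Mt1, Mt2, Mt3 and Tmem163) and 2 fell (Slc39a8 and Slc39a11). Of all genes 12.7% passed there, 5.53% higher and 7.2% lower. The fall of Slc39a8 was lost in 12 of its 15 alternatives, with an adjusted p of 0.052 after median-of-ratios scaling (limma). Between double-positive and beta cells 4 rose (Slc39a8, Slc39a10, Slc39a13 and Slc39a14) and 5 fell (Slc39a1, Mt1, Mt2, Mt3 and Tmem163). After median-of-ratios scaling 1 rose and 8 fell. Of all genes, 42.5% rose and 8.46% fell on the deposited values, and 27.8% rose and 26.1% fell after scaling. The 9 of 16 that passed on the deposited values stand beside 51.0% of all genes. Between beta and delta cells 5 rose (Slc39a1, Mt1, Mt2, Mt3 and Tmem163) and 4 fell (Slc39a8, Slc39a10, Slc39a11 and Slc39a13). After scaling 9 rose and 3 fell. Of all genes, 11.7% rose and 46.3% fell on the deposited values, and 27.8% rose and 29.7% fell after scaling. Here too 9 of 16 passed on the deposited values, beside 57.9% of all genes. The list's median difference was 0.03, -0.04 and 0.05 in these comparisons, beside -0.03, 0.32 and -0.36 over all genes. After median-of-ratios scaling it was 0.05, -0.43 and 0.46, beside -0.0056, -0.0017 and -0.018 over all genes. Slc39a8 was at 0.344 and 0.431 RPKM in double-positive cells, 0.0605 and 0.0255 RPKM in beta cells and 1.02 and 1.15 RPKM in delta cells. Its rise in double-positive relative to beta cells no longer passed after median-of-ratios scaling (0.36, adjusted p = 0.066, limma). Slc39a8 passed the level filter only through the delta libraries, so the direction of its calls against delta cells was set by the filter. This does not apply between double-positive and beta cells, which were both under 1 RPKM. Slc39a8 is included in the counts above.

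Metallothioneins bind zinc and copper in the cytosol. Mt1 was at 1182 and 1195 RPKM in double-positive cells, 3557 and 2705 RPKM in beta cells and 391 and 409 RPKM in delta cells. Mt2 was at 830.5 and 751 RPKM in double-positive cells, 2402 and 1755 RPKM in beta cells and 182 and 172 RPKM in delta cells. No groups overlap for either gene, and double-positive cells lie between the other groups. For Slc30a8 the double-positive libraries overlap the beta ones on the deposited values. After median-of-ratios scaling, though, Slc30a8 was lower in double-positive than in beta cells by 0.45 (adjusted p = 0.040, limma). Against delta cells Mt1 rose by 1.57 (SE 0.15, adjusted p = 0.0018, limma) and Mt2 by 2.15 (SE 0.17, adjusted p = 9.41e-04, limma). Relative to beta cells Mt1 fell by 1.38 (SE 0.15, adjusted p = 7.10e-04, limma) and Mt2 also fell by 1.38 (SE 0.17, adjusted p = 0.0010, limma), and these calls held under all 16 alternatives. Mt3 followed the same order at 3.56 and 3.41 RPKM in double-positive cells, 11.1 and 8.36 RPKM in beta cells and 1.42 and 1.42 RPKM in delta cells. Its call against delta cells (adjusted p = 0.012, limma) was lost when any 1 double-positive or delta library was left out.

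Tmem163, a zinc-binding protein of vesicles and the plasma membrane that also exports zinc, was at 13.7 and 15.4 RPKM in double-positive cells, 18.5 and 20.4 RPKM in beta cells and 4.11 and 4.80 RPKM in delta cells. It rose by 1.51 against delta cells (SE 0.12, adjusted p = 0.0011, limma) and fell by 0.39 relative to beta cells (SE 0.12, adjusted p = 0.036, limma), the second of which was lost in 7 alternatives, among them leaving out any 1 library other than the male beta one. It shares 152 exon bases with Mgat5 on the other strand, at 3.04 to 10.1 RPKM. Among importers, Slc39a10 was at 4.67 and 3.97 RPKM in double-positive cells, 1.19 and 1.60 RPKM in beta cells and 5.36 and 5.69 RPKM in delta cells. The beta libraries are low, as they are for Slc30a4, and the difference of 1.15 between double-positive and beta cells passed (SE 0.14, adjusted p = 0.0010, limma). Slc39a11 was at 11.2 and 9.97 RPKM in double-positive cells, 9.26 and 10.5 RPKM in beta cells and 17.7 and 18.4 RPKM in delta cells, so here double-positive cells overlap beta cells and both lie below delta cells. Slc39a1 was at 14.7 and 13.4 RPKM in double-positive cells, 19.2 and 17.9 RPKM in beta cells and 14.0 and 12.9 RPKM in delta cells. Slc39a13 was at 7.73 and 7.10 RPKM in double-positive cells, 4.89 and 5.99 RPKM in beta cells and 8.53 and 8.32 RPKM in delta cells, and shares 215 exon bases with Psmc3 on the other strand, at 30.2 to 43.7 RPKM. Slc39a14 was at 4.86 and 4.13 RPKM in double-positive cells, 2.42 and 3.44 RPKM in beta cells and 4.46 and 3.87 RPKM in delta cells. The beta libraries stand apart for all 3, above the others for Slc39a1 and below them for Slc39a13 and Slc39a14. The higher values of Slc39a13 and Slc39a14 in double-positive than in beta cells no longer passed after median-of-ratios scaling (0.04 and 0.18). Nor did the fall of Slc39a13 in beta relative to delta cells (-0.18, adjusted p = 0.16, limma).

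**Figure D4:**
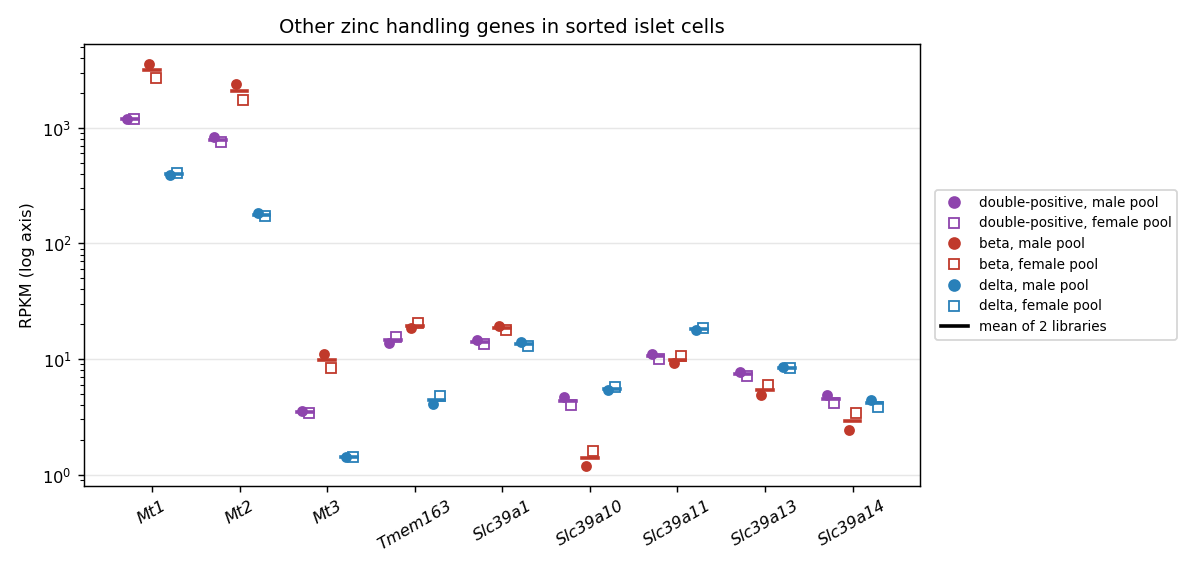
RPKM on a log axis of zinc handling genes outside the Slc30 family that passed in at least 1 comparison, without Slc39a8, with double-positive, beta and delta cells from left to right within each gene; filled circles are male pools, open squares female pools, and lines the mean of 2 libraries. Double-positive points of Mt1, Mt2, Mt3 and Tmem163 lie between the beta and the delta points.

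Because metallothioneins and Slc30a1 are the textbook targets of Mtf1, windows around the annotated starts of the members were searched for the core of the metal response element, TGCACNC or TGCGCNC, on both strands. RefSeq windows (GRCm38.p6) were matched for 9 of the 10 members, all but Slc30a8, and 25.7% of all 32851 windows held at least 1 core. Cores were found for Slc30a1, Slc30a2, Slc30a3, Slc30a4, Slc30a5 and Slc30a10, and none in the windows of Slc30a6, Slc30a7 and Slc30a9. The Mt2 window held 4 and the Mt1 window 3. The following stretches show a core in capitals with 20 bases on each side. They are given for the plasma membrane exporter, for both members with a core that were called on the deposited values, and for Mt2 as the comparison. The Slc30a5 call, in beta against delta cells, did not pass after median-of-ratios scaling (-0.08, adjusted p = 0.61, limma). The stretches read 5′ to 3′ on the strand of the gene, and where the capitals end in GCA the core itself is on the other strand.
Slc30a1, chr1:191906718-191906764, plus strand, 43 bases before the start: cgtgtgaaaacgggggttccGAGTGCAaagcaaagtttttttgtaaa
Slc30a4, chr2:122702865-122702911, minus strand, 228 bases before the start: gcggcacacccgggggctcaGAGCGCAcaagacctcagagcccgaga
Slc30a4, chr2:122702729-122702775, minus strand, 92 bases before the start: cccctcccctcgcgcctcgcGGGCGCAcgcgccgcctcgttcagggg
Slc30a5, chr13:100833449-100833495, minus strand, 48 bases before the start: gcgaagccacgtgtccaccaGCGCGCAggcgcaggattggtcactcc
Mt2, chr8:94172375-94172421, plus strand, 223 bases before the start: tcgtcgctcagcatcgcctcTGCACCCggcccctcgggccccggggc
Mt2, chr8:94172470-94172516, plus strand, 128 bases before the start: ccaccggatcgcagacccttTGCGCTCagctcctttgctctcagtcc
Mt2, chr8:94172548-94172594, plus strand, 50 bases before the start: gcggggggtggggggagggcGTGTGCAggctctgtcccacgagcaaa

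Slc30a1 and Mt2 both hold a core. On the deposited values Slc30a1 overlapped between all groups, while Mt2 separated all 3. With insulin reads left out of the denominator, Slc30a1 was lower in double-positive than in beta cells by 0.35 (adjusted p = 0.048, limma). It was then higher in beta than in delta cells by 0.43 (adjusted p = 0.023, limma). Whether Mtf1 had a part in the levels of either gene was not tested. Mtf1 itself was tested and passed in none of the 3 comparisons (adjusted p = 0.92 for double-positive against delta, 0.16 for double-positive against beta and 0.20 for beta against delta cells, limma; unadjusted p of 0.11 or more). Mtf1 shares 721 exon bases with 1110065P20Rik on the other strand, at 2.89 to 7.62 RPKM. Mt2 shares 432 exon bases with the antisense gene Gm45774, which has no value among the symbols used. A match of 7 letters is a description of the window, and no binding was measured.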

How the data were processed

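The authors deposited 1 RPKM value per gene symbol and library. STAR 2.5, edgeR 3.14.0, featureCounts and the build GRCm38.p4 are named, without roles, per the submitters' processing notes; composition correction and strand counting are not stated there. Of 46959 symbols, 27 turned into dates by a spreadsheet were left out, and 0 value columns were unused. Being RPKM, they were not given to a count model. Exon lengths of 44093 symbols (GENCODE M21) turned low values into reads, of which 83.3% to 86.4% under 50 reads were whole within 0.01.

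Genes with 2 or more libraries at or above 1 RPKM were tested on log2(RPKM + 1) with the trend option of limma 3.58.1 under R 4.3.3 (2-sided, 3 groups in 1 fit, Benjamini-Hochberg over 13022 genes, adjusted p under 0.05), a scale that understates changes of low genes. The procedure was tested on simulated data. P-values rest on the spread between the 2 pools of a group, taken over all 3 groups together and drawn towards that of genes at similar levels. That spread includes the difference between the sexes, and the main fit has no term for the pool. The series text takes all groups from the same islets, pooled by sex, so pools pair the libraries: deviations from group means correlated at 0.47 (double-positive with beta), 0.36 (double-positive with delta) and 0.24 (beta with delta). A sentence of that text names alpha cells as the source, whereas title, labels and Cre name delta cells, which was followed.

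Alternatives were pseudocounts, filters, median-of-ratios scaling, only the 2 groups compared, no intensity trend, the pool as a block, leaving out each library and, added after the data were seen, leaving insulin reads out of the denominator. The members and lists were chosen with earlier results of these data known. Named are the 10 members, the zinc handling genes, with values for those called in at least 1 comparison, the 5 genes closest to Slc30a8, the 3 closest to other called members, and markers. The p-values of Mtf1 fall outside this rule and were added after they were seen. Protein sequences were not used here.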

Additional observations from a re-analysis of the deposited data

Results flagged for a closer look

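Some members differed in opposite directions in the male and the female pools, where each pool has 1 library per group, so the contrast between pools was not tested. For double-positive minus delta cells the log2 differences were 0.074 in the male and -0.22 in the female pool for Slc30a1, 0.13 and -0.037 for Slc30a4, and 0.30 and -0.015 for Slc30a6. For double-positive minus beta cells they were 0.25 in the male and -0.21 in the female pool for Slc30a1, 0.37 and -0.20 for Slc30a6, and 0.0020 and -0.088 for Slc30a8. For beta minus delta cells they were -0.067 in the male and 0.18 in the female pool for Slc30a6, and -0.40 and 0.15 for Slc30a7. None of these comparisons passed over both pools on the deposited values. After median-of-ratios scaling Slc30a8 passed in double-positive against beta cells (-0.45) and Slc30a6 in beta against delta cells (0.44). With insulin reads left out of the denominator the same comparisons passed. So did Slc30a1 in double-positive against beta cells (-0.35) and Slc30a7 in beta against delta cells (0.39). The male libraries of double-positive and beta cells also held more acinar marker RNA than the female ones (double-positive 1913 and 66.9 RPKM, beta 7257 and 278 RPKM, male first), and its part was not tested.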

How the results depend on the processing

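Over 16 alternatives, 580 of the values for single genes kept their direction and side of the threshold, 91 lost it, 10 gained it and 35 reversed. Counted were the tested members and, in each comparison, only those zinc handling genes that were called there on the deposited values. Calls gained by other zinc handling genes, such as Slc39a3 after median-of-ratios scaling, are therefore not in these counts. Slc30a8 against delta cells kept its call throughout in both double-positive and beta cells. With median-of-ratios scaling (the same with the replicate block added) the median member difference was -0.024 in double-positive against beta and 0.25 in beta against delta cells. Reversed by it were Slc30a1, Slc30a6 and Slc30a7 against beta cells (-0.34, -0.28, -0.024) and Slc30a1, Slc30a7 and Slc30a9 in beta against delta cells (0.28, 0.25, 0.067). Leaving insulin reads out gave member medians of 0.26, -0.033 and 0.39, reversed Slc30a1 and Slc30a5 against delta cells in double-positive cells (0.075, 0.089), Slc30a1, Slc30a6 and Slc30a7 against beta cells (-0.35, -0.29, -0.033), and Slc30a1, Slc30a5, Slc30a7 and Slc30a9 in beta against delta cells (0.43, 0.068, 0.39, 0.21), and moved the median of all genes against delta cells to 0.12 in double-positive and 0.11 in beta cells. Without a filter 1 of 9 members passed in double-positive against beta cells, beside 6713 of 26144 genes, with a member median of 0.085. In the fit of only those 2 groups 1 of 7 members and 5 of 16 zinc handling genes passed, beside 5737 of 13022 genes. A filter of 5 RPKM left 1063 genes called against delta and 4405 against beta cells, fewer genes being tested. The replicate block added Slc30a5 against beta cells (0.42, adjusted p = 0.036, limma) and changed no other member call.

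Leaving out 1 library at a time, the lone library being assumed to vary like the others, gave the following ranges. In double-positive against delta cells 522 to 2055 of all genes, 3 to 5 zinc handling genes and a member median of -0.039 to 0.22. In double-positive against beta cells 4132 to 7086 genes, 4 to 8 zinc handling genes, 0 to 3 members (0 without the male double-positive library, where 1 member had an unadjusted p under 0.05) and a median of 0.094 to 0.41. In beta against delta cells a member median of -0.30 to 0.096. Reversals lay within -0.18 to 0.029 (Slc30a1), -0.12 to 0.22 (Slc30a4) and -0.039 to 0.25 (Slc30a9) in double-positive against delta cells, within -0.17 to 0.21 (Slc30a1), -0.060 to 0.23 (Slc30a6) and -0.23 to 0.14 (Slc30a8) in double-positive against beta cells, and within -0.28 to 0.096 (Slc30a1), -0.087 to 0.20 (Slc30a6) and -0.36 to 0.11 (Slc30a7) in beta against delta cells. The cause of these reversals was not tested. With all 6 libraries, the deposited values and no block, the smallest difference called for a member was 0.43, and with 2 libraries a group smaller ones may be missed.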
